A study of Rattus norvegicus with 12 samples.

Results

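The cell cycle and DNA replication genes of ND7/23 cells were compared between 4 groups of libraries by the phase in which their products act. A gene was a member when the pathway annotation deposited beside it placed it in the KEGG pathway of the cell cycle or of DNA replication, and *Myc*, *Ccnd1*, *Ccnd2*, *Ccnd3*, *Cdkn1a*, *Cdkn1b* and *Gsk3b* (7 genes) were left out by the rule. This gave 146 of the 21556 genes, with 118 in the cell cycle pathway, 35 in the replication pathway and 7 in both. By role, 37 members act at the passage from G1 into S phase, 44 in replication, 44 in mitosis and 16 at checkpoints, and 5 (*Anapc16*, *Hdac1l*, *LOC100362333*, *LOC100364016* and *LOC298795*) were given no phase.

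ND7/23 is a hybrid of rat dorsal root ganglion (DRG) neurons with the mouse neuroblastoma N18Tg2, and the cells of all groups came from 1 purchased line. The control group received neither stimulus, the menthol group received 100 μM menthol, an agonist of the cold receptor TRPM8, the Wnt3a group received Wnt3a at 100 ng/ml, which activates Wnt/β-catenin signalling, and the last group received menthol with Wnt3a. Each group had 3 RNA-seq libraries made at 6 h. The methods name no serum in the medium used for menthol stimulation, and the labels do not state whether the cells had been differentiated. The labels number the replicates without saying whether they were separate cultures, so the p-values measure only the spread between these libraries, which may be technical.

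The cell cycle is driven by cyclin-dependent kinases (CDKs). In G1, cyclin D and cyclin E kinases phosphorylate the RB family, which releases E2F factors to transcribe the genes of DNA synthesis. Origins are licensed when the origin recognition complex and CDC6 load the MCM2-7 helicase, and CDC45 and the DNA polymerases then start the forks. Entry into mitosis needs CDK1 with cyclin B, and the anaphase-promoting complex, restrained by the spindle checkpoint, ends it. β-catenin with TCF/LEF factors is best known to act on this machinery through *Myc* and *Ccnd1*, which are not among the members.

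The reads on genes ranged from 36914010 to 38836269 per library, and the members took 1.2 to 1.24% of them. Of the neuron markers, 12 of 19 had a mean under 0.1 FPKM, among them *Tubb3* (0.0224) and *Calca* (0.0228), and *Uchl1* was at 101.5 FPKM and *Isl1* at 13.2, while the 12 stromal markers ranged from *Lum* (0.0886) to *Vim* (884), with 9 of them tested. *Map2* (6.70 FPKM) and *Nefh* (5.93 FPKM) were also above the minimum for testing, so that 4 of 19 neuron markers were tested in libraries labelled as a line of sensory neuron type. Muscle markers summed to 5.96 to 10.2 FPKM per library and glia markers to 2.40 to 3.90 FPKM. Proliferation markers were present: *Mki67* was at 28.1 FPKM and *Top2a* at 35.0 FPKM on average.

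FPKM, read fragments per kilobase of gene scaled to library depth, compares levels between genes per length. A mean of at least 0.5 FPKM over the 12 libraries was needed for testing, and 140 of the 146 members passed. *Ccna1*, *Ccnb3*, *Smc1b*, *Wee2*, *Tgfb2* and *LOC298795* lay below it. The tested members had 59 (*Cdkn1c*) to 33420 (*Ywhaz*) reads per library, with a median of 1669. In control, checkpoint members had the highest median level (98.7 FPKM), followed by G1/S (18.9), mitosis (16.3) and replication (12.7), against 10.3 over all 11451 tested genes. The highest were the 14-3-3 genes *Ywhaz* and *Ywhae*, whose products hold phosphorylated CDC25 in the cytoplasm, the anaphase-promoting complex subunit *Anapc5* and *Skp1* of the SCF ubiquitin ligase. Among replication members, *Pcna*, the sliding clamp, led with 105.5 ± 0.844 FPKM (SD, n = 3), and *Cdc7*, the kinase that fires origins, was lowest at 2.33 FPKM. Between control libraries the coefficient of variation had a median of 5.17% for replication, 3.28% for G1/S, 3.04% for mitosis and 2.26% for checkpoint members, against 4.15% over all tested genes.

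Promoters of some members are shown as examples. E2F and CHR elements, which are known from genes of DNA synthesis and of mitosis, were not equally frequent in the phases. The examples are not the members with the smallest p: *Mcm3* has an E2F match and is not printed, while *Cdc20* is. Promoter windows of 250 bases before and 50 bases after the start of transcription (RefSeq, build GRCr8) were found for 118 of the 146 members by gene identifier. On both strands, E2F matches were searched as TTTGGCGC, TTTCCCGC, TTTGCCGC and TTTCGCGC, and the cell cycle genes homology region (CHR) as TTTGAA and TTCGAA. An E2F match stood in 15 of 39 replication windows (38.5%), 6 of 29 G1/S windows (20.7%), 4 of 37 mitosis windows (10.8%) and 2 of 12 checkpoint windows (16.7%), against 4.31% of the windows of tested genes and 2.25% of all genes with a window. A CHR match stood in 14 of 37 mitosis windows (37.8%), 7 of 29 G1/S windows (24.1%), 8 of 39 replication windows (20.5%) and 1 of 12 checkpoint windows (8.33%). The share was 13.5% for tested genes and 19.5% for all genes with a window. The CCAAT box was present in 66.7% of the checkpoint, 62.2% of the mitosis, 48.7% of the replication and 31% of the G1/S windows, against 38.7% of tested genes. The GGGCGG box of SP1 was present in 59.0% of the replication windows, against 63.4%. TCF/LEF matches (CTTTGAT and CTTTGTT) were found in 6 of the 118 windows (5.08%), against 5.95% of tested genes. A match describes the letters of a window and not a bound site.

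The 4 helicase subunits *Mcm2*, *Mcm5*, *Mcm6* and *Mcm7*, each with an E2F match, are printed first, as the 160 bases before the start with the match in capitals. *Mcm2* lies on the minus strand at chr4:122918095-122918254, *Mcm5* on the plus strand at chr19:13488653-13488812, *Mcm6* on the minus strand at chr13:42404353-42404512 and *Mcm7* on the minus strand at chr12:22163179-22163338. In *Mcm2* and *Mcm6* the capitals join 2 overlapping matches on opposite strands.
Mcm2: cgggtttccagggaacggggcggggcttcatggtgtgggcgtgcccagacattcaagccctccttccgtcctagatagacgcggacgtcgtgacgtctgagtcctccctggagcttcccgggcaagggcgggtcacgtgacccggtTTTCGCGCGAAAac
Mcm5: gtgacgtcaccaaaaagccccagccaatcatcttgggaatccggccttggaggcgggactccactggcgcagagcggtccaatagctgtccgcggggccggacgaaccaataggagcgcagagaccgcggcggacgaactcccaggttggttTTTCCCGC
Mcm6: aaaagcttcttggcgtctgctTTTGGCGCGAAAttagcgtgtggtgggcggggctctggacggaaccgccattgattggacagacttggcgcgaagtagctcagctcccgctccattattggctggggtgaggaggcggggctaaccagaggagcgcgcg
Mcm7: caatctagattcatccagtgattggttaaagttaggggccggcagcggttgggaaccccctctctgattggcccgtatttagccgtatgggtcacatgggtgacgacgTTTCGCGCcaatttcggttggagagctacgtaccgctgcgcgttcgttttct

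The mitotic members *Cdk1*, *Cdc20* and *Pttg1*, each with a CHR match, follow in the same form, with the CHR letters in capitals. *Cdk1* lies on the plus strand at chr20:19265133-19265292 and has 2 matches, *Cdc20* on the minus strand at chr5:137255800-137255959, and *Pttg1* on the minus strand at chr10:28406327-28406486, where the match reads on the opposite strand. The elements did not separate the printed genes fully: *Cdk1* also holds an E2F match, left in lower case, and the windows of *Mcm2* and *Mcm7* hold a CHR match further from the start than the bases printed.
Cdk1: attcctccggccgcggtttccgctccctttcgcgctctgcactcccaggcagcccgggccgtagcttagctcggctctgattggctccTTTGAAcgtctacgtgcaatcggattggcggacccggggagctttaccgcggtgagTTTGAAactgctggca
Cdc20: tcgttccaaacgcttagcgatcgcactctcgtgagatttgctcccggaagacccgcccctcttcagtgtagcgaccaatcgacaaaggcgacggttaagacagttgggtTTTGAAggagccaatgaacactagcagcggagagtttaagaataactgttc
Pttg1: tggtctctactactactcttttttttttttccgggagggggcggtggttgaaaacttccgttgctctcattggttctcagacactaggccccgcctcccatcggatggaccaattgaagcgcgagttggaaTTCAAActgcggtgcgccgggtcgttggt

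**Figure D1:**
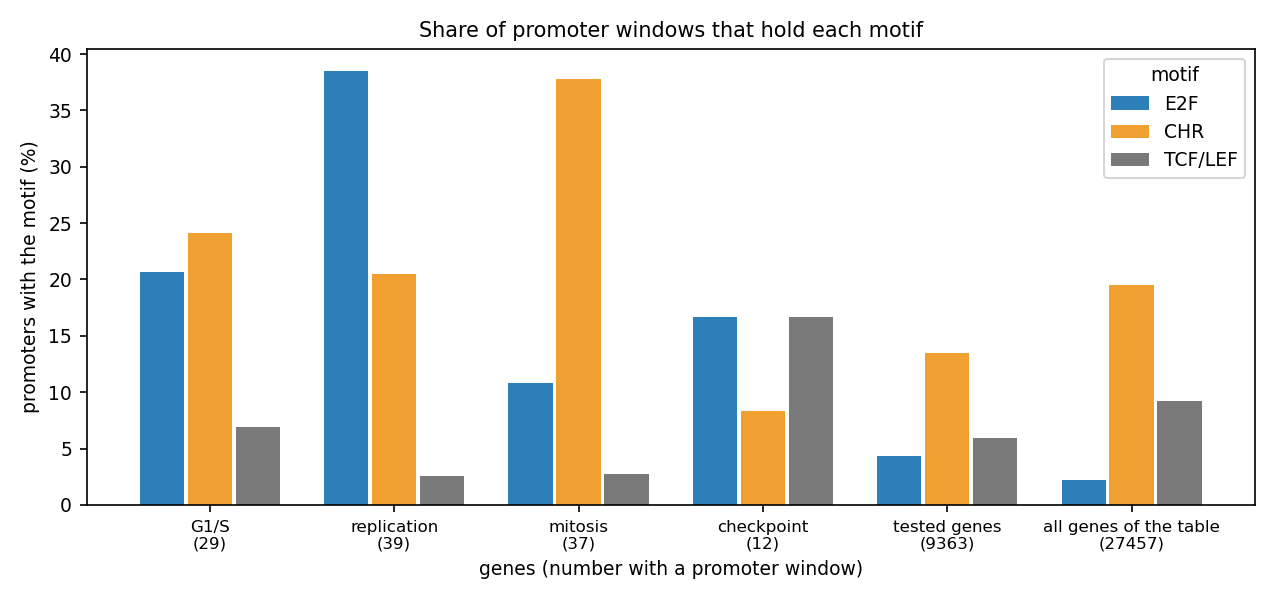
Bars give the percentage of promoter windows (y axis) that hold an E2F, CHR or TCF/LEF match in each phase, in all tested genes and in all genes with a window (x axis, number of windows in brackets). The E2F share is highest in replication (38.5%) and the CHR share in mitosis (37.8%).

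Over the 4 groups, differences between members were small. The largest difference of a tested member in the 5 comparisons between groups was -0.33 on the log2 scale (*Pole2*, menthol with Wnt3a against menthol), and 0 of 140 members passed an adjusted p of 0.05 in limma's F-test over the 4 groups, against 0.978% of all tested genes. At an unadjusted p under 0.05 the F-test listed 28 members (20%), against 17.4% of tested genes. The lists held 13 of 44 replication, 8 of 36 G1/S, 3 of 40 mitosis and 3 of 16 checkpoint members and 1 without a phase (*LOC100362333*). The smallest adjusted p belonged to *E2f4* (0.0882), *Mcm6* (0.101), *Mcm3* (0.103) and *Pkmyt1* (0.105). With limma voom on read counts recovered from the FPKM values, *Mcm6*, *Mcm3*, *Ep300*, *Crebbp*, *E2f4*, *Lig1* and *Cdk6* passed (7 members), among 500 genes in all.

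The summed level of the 44 replication genes was 831, 796 and 818 FPKM in control, 850, 789 and 791 in menthol, 794, 783 and 788 in Wnt3a, and 790, 738 and 765 in menthol with Wnt3a. All libraries of menthol with Wnt3a lay below all control libraries, as did those of Wnt3a, while menthol alone overlapped control. The sums of the 2 Wnt3a groups overlapped each other and those of menthol. The sum over mitosis members ranged from 952 to 993 FPKM and that over G1/S members from 1054 to 1089 FPKM over the 12 libraries. Fewer cells in S phase and less RNA of these genes per cell cannot be told apart in bulk RNA.

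As a second summary, the difference of each member from its own mean over the 12 libraries was taken on the log2 scale and its median found within each library. For replication this median was 0.0504, 0.0152 and 0.0488 in control, 0.0763, -0.0023 and 0.0149 in menthol, 0.0020, -0.0067 and 0.0021 in Wnt3a, and -0.0094, -0.0988 and -0.0429 in menthol with Wnt3a. Replicate 2 of menthol with Wnt3a stood lowest and replicate 1 of menthol highest. The spread of this median between libraries of 1 group was widest in those 2 groups, with an SD of 0.0452 and 0.0413 (n = 3 each). For the other phases the group means lay between -0.014 and 0.013.

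**Figure D2:**
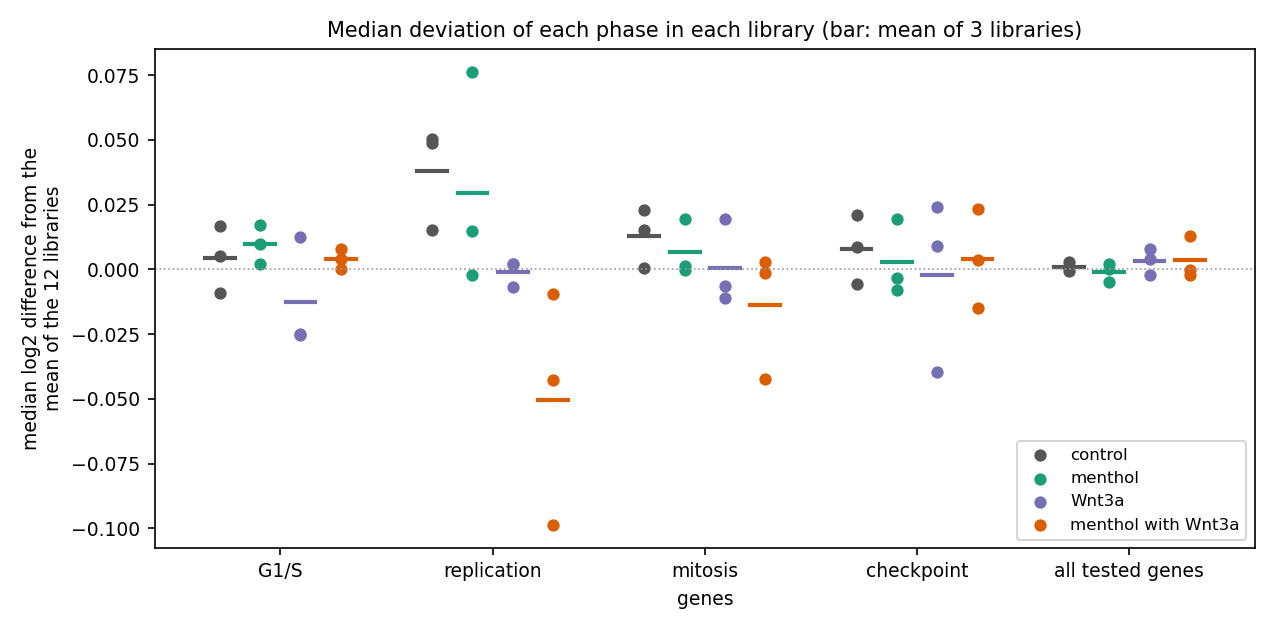
Points are libraries (3 per group) and bars group means. The y axis gives the median log2 difference of the genes on the x axis from their mean over the 12 libraries. Replication members of menthol with Wnt3a lie at -0.0094 to -0.0988, below all control libraries (0.0152 to 0.0504), while the other phases overlap between groups.

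Against control, menthol with Wnt3a had the lowest replication median of the 3 stimulated groups: 34 of 44 were lower, 16 of them at an unadjusted p under 0.05, and 0 higher at that p. Over all tested genes 6.76% were lower at that p and 6.74% higher. The median log2 fold change was -0.08 for replication, -0.0064 for G1/S, -0.0031 for mitosis and 0.0047 for checkpoint members, and 0.0040 for all tested genes. In replication, 15 of 44 members had control and stimulated libraries that did not overlap, with the stimulated ones lower, against 9.98% of tested genes. In the other phases, 0 of 36 G1/S, 5 of 40 mitosis and 0 of 16 checkpoint members were lower at the unadjusted p. Over all 140 members 22 were lower and 3 higher at that p, and 27 did not overlap and were lower. None (0) passed the adjusted p in limma, against 0.83% of tested genes, while limma voom passed 7 members among 261 genes: *Mcm6*, *Mcm3*, *Lig1*, *Pold1*, *Rpa1*, *Cdc14a* and *Pkmyt1*. Without replicate 2 of menthol with Wnt3a, 7 replication members were lower at the unadjusted p, and without replicate 1 of control 9 were.

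In Wnt3a alone, of the 44 replication members, 31 were lower than in control, 8 of them at an unadjusted p under 0.05, and 1 (*Ssbp1*) was higher at that p, against 6.91% of tested genes lower and 8.17% higher. The median log2 fold change was -0.06 for replication, 0.0062 for G1/S, 0.000102 for mitosis and 0.0045 for checkpoint members. In 9 of 44 replication members the Wnt3a libraries lay below all control libraries, against 10.1% of tested genes. No member (0 of 140) passed the adjusted p, against 0.437% of tested genes, and 20 members were past the unadjusted p. With voom 2 members (*Ep300* and *Crebbp*) passed, among 303 genes in all. Without replicate 1 of control, the 8 members became 4, and without replicate 2 of Wnt3a, 5.

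In menthol alone, against control, 30 of 44 replication members were lower, with a median log2 fold change of -0.03, and 0 of them at an unadjusted p under 0.05. Over all 140 members, 2 (*Gadd45b* and *Anapc2*) were lower and 5 (*Ssbp1*, *Pold3*, *Cdk2*, *E2f4* and *Smad4*) higher at that p, against 4.82% and 4.51% of tested genes. Of the higher ones, *Ssbp1* and *Pold3* are replication members. No member (0) passed the adjusted p, against 0.105% of tested genes, and voom called 60 genes in all and 0 members.

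When menthol was added to Wnt3a, 6 replication members were lower and 1 higher than in Wnt3a alone at an unadjusted p under 0.05, against 7.37% and 7.13% of tested genes, with a median log2 fold change of -0.04. G1/S members went the other way at that p, with 5 higher (*Ep300*, *Cdk6*, *E2f5*, *E2f4* and *Ccne1*) and 1 lower (*Cdk4*). When Wnt3a was added to menthol, 10 replication members were lower and 0 higher at that p, against 3.27% and 3.45% of tested genes, with a median of -0.08. No member (0) passed the adjusted p in either comparison, against 0.0524% and 0.0961% of tested genes, with 21 and 19 members at the unadjusted p. By voom 1 (*Cdk6*) and 0 members passed, among 143 and 33 genes in all. The 6 lower members of the first comparison became 2 without replicate 2 of menthol with Wnt3a and 10 without its replicate 1, and the 10 of the second became 4 without replicate 1 of menthol and 5 without replicate 2 of menthol with Wnt3a. These comparisons share libraries with each other and with those against control, so they are not independent views of the same genes.

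A contrast chosen after the values were seen averaged the effect of Wnt3a over the absence and the presence of menthol, 6 libraries against 6. In it 16 replication members were lower and 0 higher at an unadjusted p under 0.05, against 6.59% of tested genes lower and 7.61% higher. *Mcm2*, *Mcm3*, *Orc1* and *Cdc14a* (4 members) had all 6 Wnt3a libraries below all 6 others, against 0.541% of tested genes. No member (0) passed the adjusted p, against 0.803%. With voom 6 passed among 279 genes in all: *Mcm2*, *Mcm3*, *Mcm5*, *Mcm6*, *Mcm7* and *Lig1*. Without replicate 1 of control the 16 became 10. The same average for menthol gave 7 replication members lower and 0 higher at the unadjusted p, against 8.14% and 7.34% of tested genes, and 0 members at the adjusted p, against 1.15%.

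**Figure D3:**
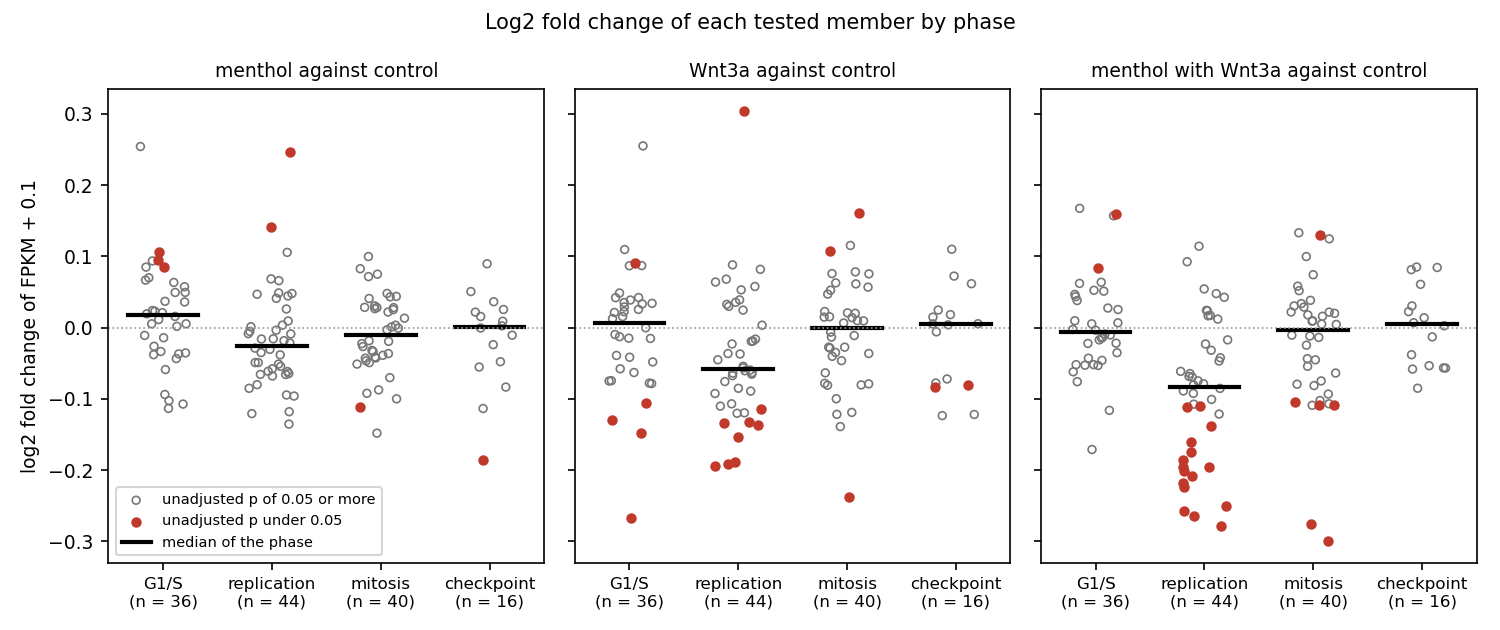
Each point is a tested member, with its log2 fold change of FPKM + 0.1 on the y axis and its phase on the x axis, for 3 comparisons with control. Red points have an unadjusted p under 0.05 and black bars are phase medians. The replication median lies at -0.03, -0.06 and -0.08 from left to right, and 16 of its 44 points are red and below 0 in menthol with Wnt3a.

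Within replication, the MCM2-7 helicase is the ring that unwinds DNA at the fork. Its 6 subunits had fold changes below 0 in Wnt3a and in menthol with Wnt3a against control, 5 of 6 at an unadjusted p under 0.05 in each, and 0 passed the adjusted p. *Mcm6* had 52.6, 48.7 and 50.2 FPKM in control, 49.7, 46.2 and 48.7 in menthol, 47.7, 44.8 and 45.6 in Wnt3a, and 46.3, 40.4 and 43.1 in menthol with Wnt3a. All Wnt3a and all menthol with Wnt3a libraries lay below all control libraries, while menthol overlapped control. Its log2 fold change in menthol with Wnt3a against control was -0.22 (SE 0.049, 95% interval -0.33 to -0.12, limma adjusted p = 0.0506), a level of 0.856 times that of control. *Mcm6* passed with a pseudocount of 1 (adjusted p = 0.0499), with a mean FPKM of at least 1 (0.0429), with centred libraries (0.0453), without replicate 1 of menthol with Wnt3a (0.0186) and by voom (0.00366). It did not pass with a smaller pseudocount, with no FPKM minimum, in a fit of only the compared groups, or on leaving out any other library.

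*Mcm3* had 23.4, 20.5 and 22.2 FPKM in control, 22.2, 20.3 and 20.5 in menthol, 19.4, 18.9 and 19.5 in Wnt3a, and 19.9, 17.2 and 18.4 in menthol with Wnt3a. The 6 libraries with Wnt3a were all below the 6 without it. The log2 fold change was -0.19 (SE 0.059) for Wnt3a and -0.25 (SE 0.059, limma adjusted p = 0.0733) for menthol with Wnt3a against control. *Mcm2* had 38.5, 33.9 and 34.1 FPKM in control, 38.5, 35.0 and 36.0 in menthol, 33.1, 33.6 and 31.5 in Wnt3a, and 33.4, 32.3 and 32.8 in menthol with Wnt3a. Here too the 6 libraries with Wnt3a lay below the 6 without, by a narrow margin (33.6 against 33.9 FPKM).

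*Mcm5* had 27.9, 26.8 and 25.8 FPKM in control, 28.8, 24.7 and 23.97 in menthol, 25.1, 21.4 and 24.2 in Wnt3a, and 24.8, 22.5 and 23.0 in menthol with Wnt3a. Both Wnt3a groups lay below control, and both overlapped menthol. *Mcm7* and *Mcm4*, from the same ring, had log2 fold changes of -0.19 (SE 0.062) and -0.10 (SE 0.0544) in menthol with Wnt3a against control, and *Mcm4* overlapped between the groups. The 5 of 6 subunits at an unadjusted p under 0.05 stand against 6.91% of tested genes lower in Wnt3a and 6.76% in menthol with Wnt3a, and in menthol 0 of 6 were, against 4.82%. The median of the 6 was -0.14 in Wnt3a, -0.19 in menthol with Wnt3a and -0.04 in menthol, each against control. In the same order, the 38 replication members outside the helicase had medians of -0.04, -0.07 and -0.03, with 3, 11 and 0 lower at that p.

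**Figure D4:**
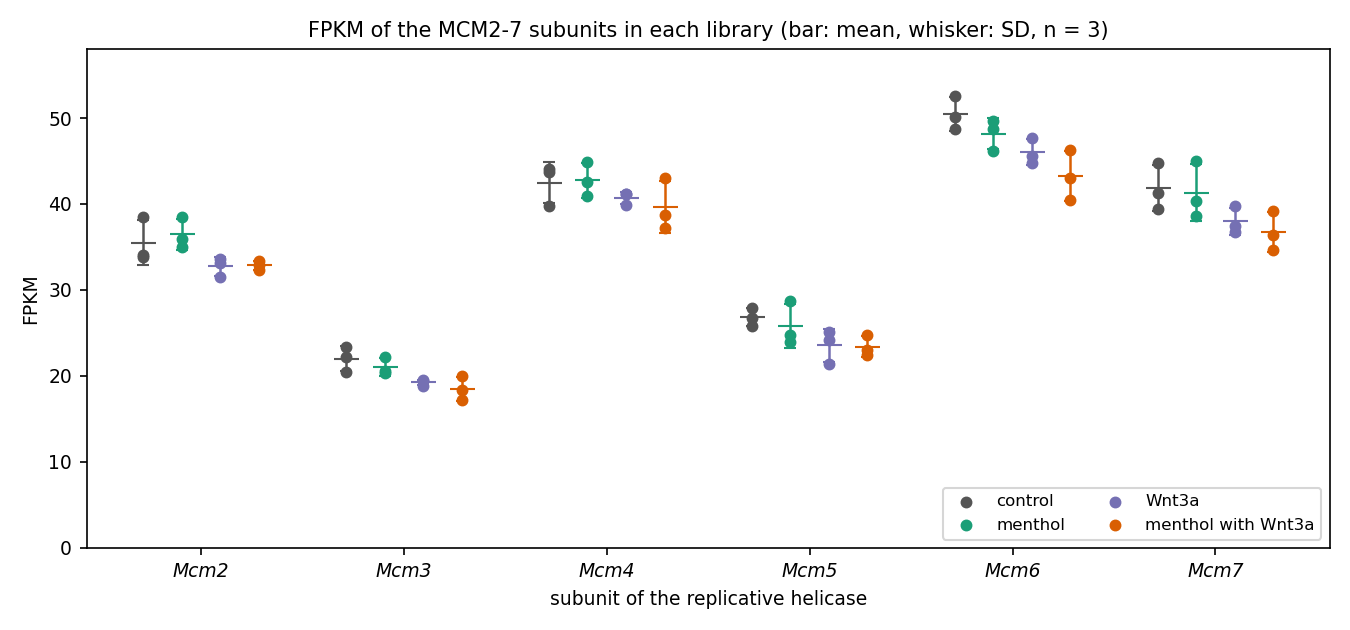
FPKM (y axis, from 0) of the 6 MCM2-7 subunits (x axis) in each of the 12 libraries, coloured by group, with the mean and SD (n = 3). *Mcm3* and *Mcm2* show the 6 libraries with Wnt3a below the 6 without it, and *Mcm4* shows overlap.

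Of the genes that place the helicase, *Orc1*, the largest subunit of the origin recognition complex, had 5.82, 5.43 and 5.39 FPKM in control, 5.84, 5.21 and 5.26 in menthol, 4.69, 4.64 and 5.19 in Wnt3a, and 4.88, 4.96 and 4.99 in menthol with Wnt3a. All libraries with Wnt3a were below all those without. The log2 fold change was -0.19 (SE 0.065) for Wnt3a and -0.16 (SE 0.065) for menthol with Wnt3a against control, with limma adjusted p-values of 0.18 and 0.287. The other 5 origin subunits gave no unadjusted p under 0.05 in either comparison. *Cdc6*, the loader, had 8.55, 7.05 and 8.18 FPKM in control and 7.34, 6.22 and 6.81 in menthol with Wnt3a, which overlapped, with a log2 fold change of -0.22 (SE 0.075). *Cdc45*, a helicase cofactor, was at 5.48 ± 0.769 (SD, n = 3) in control and 4.49 ± 0.501 in menthol with Wnt3a, and *Cdc7* lay in the other direction (log2 fold change 0.11, SE 0.11). 

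Of the polymerases and ligases, *Pold1* and *Lig1* had the smallest p in menthol with Wnt3a against control. *Pold1*, the catalytic subunit of polymerase delta, had 13.2, 11.1 and 12.6 FPKM in control, 11.1, 11.7 and 11.1 in menthol, 11.2, 11.1 and 12.3 in Wnt3a, and 10.5, 9.63 and 10.6 in menthol with Wnt3a, the last group below all other libraries. Its log2 fold change against control was -0.26 (SE 0.065, limma adjusted p = 0.0937), and 0.0416 without replicate 2 of control. *Lig1*, which joins Okazaki fragments, had 17.3, 16.6 and 16.8 FPKM in control and 15.5, 13.98 and 14.4 in menthol with Wnt3a, a log2 difference of -0.21 (SE 0.0515, limma adjusted p = 0.0875). The groups did not overlap in either gene. Of 12 polymerase and primase genes, 10 were lower in menthol with Wnt3a than in control. Of these, 5 (*Pold1*, *Pola1*, *Pola2*, *Pole2* and *Prim1*) were so at an unadjusted p under 0.05, against 6.76% of tested genes. *Pold3* (0.02) and *Pole4* (0.05) had log2 fold changes above 0.

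*Rpa1*, the large subunit of the single-strand binding protein of the nucleus, had 28.4, 25.8 and 26.7 FPKM in control, 27.4, 25.1 and 26.2 in menthol, 25.95, 26.4 and 26.4 in Wnt3a, and 24.9, 23.0 and 23.6 in menthol with Wnt3a. The libraries of menthol with Wnt3a lay below the other 9, at a log2 difference from control of -0.17 (SE 0.045, limma adjusted p = 0.0965). The interaction of menthol and Wnt3a on *Rpa1* was -0.10 (SE 0.0635, limma adjusted p = 0.762). *Pcna* and *Fen1*, the flap endonuclease, overlapped between the groups: their log2 fold changes in menthol with Wnt3a against control were -0.03 (SE 0.053) and 0.02 (SE 0.0783). *Ssbp1*, the single-strand binding protein of mitochondria, had 12.6, 11.4 and 11.8 FPKM in control, 15.1, 13.3 and 14.2 in menthol, 12.8, 15.5 and 16.1 in Wnt3a, and 12.2, 13.6 and 11.1 in menthol with Wnt3a. Each stimulus alone lay above control, and the combination overlapped it. Its interaction on the log2 scale was -0.51 (SE 0.12, limma adjusted p = 0.715), with the smallest p among the members. The interaction had an unadjusted p under 0.05 in 4 members (*Ssbp1*, *Gadd45b*, *Mad1l1* and *Ep300*), against 6.99% of tested genes, and 0 members and 0% of tested genes passed the adjusted p, by voom too.

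Replication members were also divided by the E2F match of their promoter. In menthol with Wnt3a against control, 12 of the 15 with a match were lower, with a median of -0.14 and 9 lower at an unadjusted p under 0.05. Of the 24 with a window and no match, 17 were lower, with a median of -0.07 and 5 at that p. Over all tested genes 6.76% were lower at that p. For Wnt3a against control the counts at that p were 7 of 15 and 0 of 24, against 6.91% of tested genes, with medians of -0.12 and -0.04. The matches include *Mcm2*, *Mcm3*, *Mcm5*, *Mcm6*, *Mcm7* and *Lig1*, so the division repeats in part that by helicase subunit, and the difference between the 2 sets was not tested.

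At the passage from G1 to S, the 8 cyclins, kinases and phosphatase had a median log2 fold change of 0.02 in menthol with Wnt3a against control, with 0 lower at an unadjusted p under 0.05. *Ccne1*, cyclin E1, had 4.91, 4.63 and 4.22 FPKM in control, 5.55, 4.26 and 4.37 in menthol, 4.84, 3.95 and 4.25 in Wnt3a, and 4.99, 5.23 and 5.12 in menthol with Wnt3a. The last group lay above control and Wnt3a and overlapped menthol. Its partner *Cdk2* was at 16.6 ± 0.256 FPKM in control, 17.9 ± 0.47 in menthol, 16.4 ± 0.539 in Wnt3a and 16.4 ± 0.968 in menthol with Wnt3a (SD, n = 3). *Ccne2*, *Cdc25a*, *Skp2* and *Rb1* overlapped between control and menthol with Wnt3a, with group means of 2.39 and 2.39, 10.7 and 10.5, 3.78 and 4.27, and 3.997 and 3.96 FPKM.

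The transcription factors of this step differed by member. *E2f4*, an E2F that acts mainly as a repressor with RB family proteins, had 34.6, 34.1 and 32.8 FPKM in control, 36.7, 34.5 and 37.2 in menthol, 31.1, 32.7 and 30.4 in Wnt3a, and 33.7, 33.1 and 34.0 in menthol with Wnt3a. Wnt3a lay below all other libraries, and menthol with Wnt3a overlapped control. The log2 fold changes were 0.09 (SE 0.039) for menthol and -0.11 (SE 0.039) for Wnt3a against control. *E2f1*, an activator E2F, had means of 8.99, 8.76, 8.503 and 8.29 FPKM in control, menthol, Wnt3a and menthol with Wnt3a, with no unadjusted p under 0.05 in these comparisons. *E2f2*, named after its values were seen, was higher in menthol with Wnt3a than in control (log2 fold change 0.16, SE 0.067).

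The coactivator *Ep300* and the kinase *Cdk6* were lower in Wnt3a than in control, and higher in menthol with Wnt3a than in Wnt3a. *Ep300*, a histone acetyltransferase, had 20.4, 19.7 and 20.8 FPKM in control, 20.1, 20.1 and 20.9 in menthol, 18.5, 17.1 and 19.5 in Wnt3a, and 20.4, 20.1 and 20.3 in menthol with Wnt3a. The Wnt3a libraries lay below the other 9. The log2 fold change was -0.15 (SE 0.045) for Wnt3a against control and 0.15 (SE 0.045) for menthol with Wnt3a against Wnt3a. *Cdk6* followed with -0.13 and 0.17 (SE 0.053 each). The interaction had a limma adjusted p of 0.715 for *Ep300* and 0.724 for *Cdk6*. Replicate 2 of Wnt3a had the lowest value of both genes. *Tgfb3*, a ligand that restrains G1, was at 4.91 ± 0.151 FPKM in control, 4.53 ± 0.00429 in menthol, 5.22 ± 0.101 in Wnt3a and 4.996 ± 0.212 in menthol with Wnt3a (SD, n = 3).

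In mitosis, *Pkmyt1*, *Cdk1* and *Cdc14a* had the smallest p in the F-test. *Cdk1*, the mitotic kinase, had 52.6, 51.7 and 51.4 FPKM in control, 52.7, 51.9 and 51.4 in menthol, 50.2, 51.9 and 50.6 in Wnt3a, and 48.5, 47.1 and 49.1 in menthol with Wnt3a. The last group lay below the other 9 libraries, at a log2 difference from control of -0.10 (SE 0.028, limma adjusted p = 0.11). *Pkmyt1*, a kinase that inhibits CDK1, had 7.50, 7.43 and 7.21 FPKM in control, 7.37, 6.84 and 7.66 in menthol, 6.49, 6.51 and 7.35 in Wnt3a, and 5.52, 5.89 and 6.55 in menthol with Wnt3a. Menthol with Wnt3a was below control and menthol and overlapped Wnt3a, at a log2 fold change against control of -0.30 (SE 0.071, adjusted p = 0.0759).

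*Cdc14a*, a phosphatase that acts against CDK1 substrates, had 4.62, 4.11 and 4.46 FPKM in control, 3.97, 4.01 and 3.88 in menthol, 3.82, 3.47 and 3.86 in Wnt3a, and 3.63, 3.79 and 3.43 in menthol with Wnt3a. Every stimulated group lay below control, with log2 fold changes of -0.15 (SE 0.07), -0.24 and -0.28 (limma adjusted p = 0.538, 0.133 and 0.0935). Of the cyclins, *Ccnb1* had means of 24.5, 23.6, 24.3 and 23.2 FPKM in control, menthol, Wnt3a and menthol with Wnt3a, and overlapped between control and each other group. *Ccna2*, which also acts in S phase, had means of 26.2, 25.4, 25.1 and 24.3 FPKM, and menthol with Wnt3a lay below all control libraries (log2 fold change -0.11, SE 0.0442, limma adjusted p = 0.293). *Pttg1*, securin, had 24.02, 24.2 and 23.0 FPKM in control, 21.6, 25.9 and 26.1 in menthol, 28.1, 25.8 and 25.8 in Wnt3a, and 26.4, 26.4 and 25.2 in menthol with Wnt3a. Both Wnt3a groups were above control here, and both overlapped menthol.

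The mitotic kinase *Plk1*, the spindle checkpoint kinase *Bub1*, the anaphase activator *Cdc20* and *Wee1*, a kinase that inhibits CDK1, had log2 fold changes in menthol with Wnt3a against control of 0.0044, -0.011, -0.05 and -0.10, with unadjusted p over 0.05 in limma. Of 15 members of the anaphase-promoting complex and its activators, 1 (*Cdc16*) was higher and 1 (*Anapc2*) lower at an unadjusted p under 0.05. Of 7 spindle checkpoint members 0 were, against 6.74% of tested genes higher and 6.76% lower. The 7 tested cohesin and separase members had a median of 0.02. For the mitotic cyclins, *Cdk1* and its regulators, the median log2 difference from the mean over the 12 libraries was -0.0833 to -0.0322 in menthol with Wnt3a. This lay below all libraries of the other groups (control 0.0049 to 0.0516, menthol 0.002 to 0.0217, Wnt3a -0.0229 to 0.0328).

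At the checkpoints, *Gadd45b*, a stress-induced regulator of cell cycle arrest, had 9.17, 8.67 and 8.80 FPKM in control, 8.51, 7.80 and 7.12 in menthol, 8.51, 8.65 and 7.35 in Wnt3a, and 9.16, 9.79 and 8.86 in menthol with Wnt3a. Each stimulus alone lay below control, and the combination lay above both. The interaction was 0.37 (SE 0.10, limma adjusted p = 0.715). *Ywhag*, a 14-3-3 gene, had 112, 109 and 115 FPKM in Wnt3a against 118, 118 and 119 in control, and the groups did not overlap. The checkpoint kinases *Chek1* and *Atr* had log2 fold changes of -0.09 and -0.06 in menthol with Wnt3a against control, and *Gadd45a* of 0.08, none at an unadjusted p under 0.05.

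**Figure D5:**
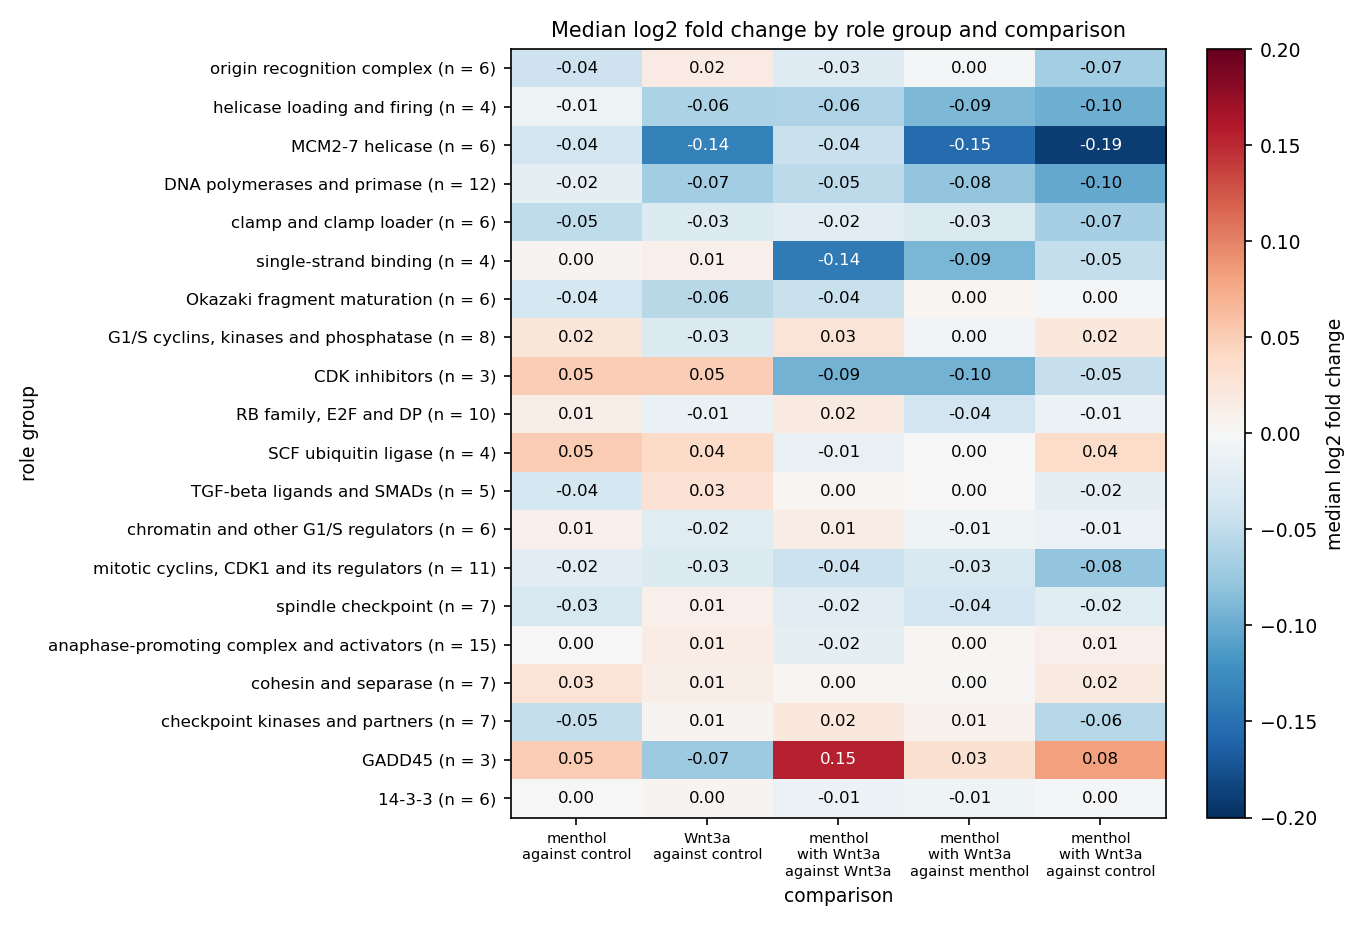
Colour and number give the median log2 fold change of each role group (y axis, number of tested members in brackets) in 5 comparisons (x axis). The helicase subunits have the lowest median against control, -0.19 in menthol with Wnt3a and -0.14 in Wnt3a.

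Proliferation genes outside both pathways gave a further view. Of 32 such genes, all tested, 29 were lower in menthol with Wnt3a than in control, with a median log2 fold change of -0.11 and 12 lower at an unadjusted p under 0.05, against 6.76% of tested genes, and 0 passed the adjusted p. Of these, 9 act in S phase, with a median of -0.12 and 6 lower at that p, and 23 in mitosis or as regulators, with a median of -0.08 and 6 lower at that p. Their summed level was 686.4 to 717.8 FPKM in control, 676.4 to 699.8 in menthol, 668 to 672.5 in Wnt3a and 625.1 to 671.7 in menthol with Wnt3a. *Uhrf1*, which maintains DNA methylation at the fork, and *Rrm1*, a subunit of ribonucleotide reductase, had log2 fold changes of -0.18 (SE 0.048) and -0.16 (SE 0.045), and *Ube2c*, a partner of the anaphase-promoting complex, -0.21 (SE 0.052).

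Stromal and neuron markers also differed between the groups. The summed level of the 12 stromal markers was 1269 to 1283 FPKM in control, 1158 to 1214 in menthol, 1234 to 1286 in Wnt3a and 1159 to 1167 in menthol with Wnt3a. Both menthol groups lay below control and Wnt3a alone overlapped it, unlike the replication sums. Of 9 tested, 8 were lower in menthol with Wnt3a than in control, 7 of them at an unadjusted p under 0.05 and 1 at the adjusted p. Over all tested genes 6.76% were lower at the unadjusted p and 0.83% passed the adjusted p. *Vim* made up most of the stromal sum (884 FPKM on average). By gene, 7 of 9 tested stromal markers were lower in the averaged effect of Wnt3a, 3 of them at an unadjusted p under 0.05, against 6.59% of tested genes. *Fn1*, fibronectin, was at 57.9 to 65.4 FPKM in control, 53.5 to 57.5 in menthol, 47.9 to 55.4 in Wnt3a and 49.5 to 55.1 in menthol with Wnt3a. *Lum*, the lowest of the list, had a mean of 0.0886 FPKM. The 19 neuron markers summed to 119.6 to 126.6 FPKM in control, 124 to 134.9 in menthol, 127 to 134.4 in Wnt3a and 127.5 to 140.1 in menthol with Wnt3a. Among them *Isl1* was at 10.8 to 11.4 FPKM in control, 9.28 to 10.8 in menthol, 14.1 to 17.6 in Wnt3a and 15.0 to 15.8 in menthol with Wnt3a. The part of the stromal and neuron markers in the result was not tested. Reads of near-identical copies could be split between genes: *LOC100362333*, now named *Pole3-ps3*, was at 8.34 ± 0.625 FPKM in control and 6.85 ± 0.703 in menthol with Wnt3a (SD, n = 3), and *LOC100364016* is now *Ccnb2-ps2*, so the levels of *Pole3* and *Ccnb2* are uncertain.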

How the data were processed

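RNA-seq libraries of ND7/23 cells (4 groups, 3 each) were used. The deposited table holds FPKM per gene, which the authors computed after trimming, alignment and counting. The submitters' processing notes name fastp, HISAT, HTSeq, DESeq2, R 3.2.0 and the rat build mRatBN7.2, and how reads of mouse origin were assigned in this hybrid line is not given in the sources used here. Here, log2(FPKM + 0.1) was fitted with limma 3.58.1 (R 4.3.3, trend) in 1 fit of the 4 groups. It covered 11451 genes whose FPKM averaged 0.5 or more. Tests were two-sided, with Benjamini-Hochberg adjustment over all of them. Fold changes are on that scale, which understates low genes. FPKM steps gave whole reads for 21556 of 21556 genes (tolerance 0.0001 reads), of which 1804 were above 0 in 1 library only. limma voom was run on these reads. Between replicates, chi-square per degree of freedom was 3.53 to 7.61, so no library repeated another.

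Named members were those past the adjusted p, the 3 smallest F-test p-values per phase, a list by role, and the 3 highest and 3 lowest in control per phase. Others were chosen after their values were seen. Members and lists were chosen with earlier results of these data known, and the averaged effects of Wnt3a and of menthol were added after seeing the data. Alternatives changed the pseudocount, the FPKM minimum, the centring, the count model and the replicate block, and left out each library. The script was tested on simulated data. Promoters came from RefSeq (GRCr8), matched by gene identifier, and their coordinates are of that build.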

Additional observations from a re-analysis of the deposited data

How the results depend on the processing

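No result past a threshold changed direction, while small medians of G1/S, mitosis and checkpoint members changed sign. In menthol with Wnt3a against control, 0 members passing the adjusted p became 1 with a pseudocount of 1, 1 with a mean FPKM of at least 1, 1 with centred libraries, 7 with limma voom, 4 with the replicate block and 0 to 2 on leaving out a library (2 without replicate 1 of menthol with Wnt3a, 1 without replicate 2 of control). For the averaged Wnt3a effect 0 became 1 with a mean FPKM of at least 1, 6 with voom, 6 with the replicate block and 0 to 2 on leaving out a library. For Wnt3a against control 0 became 2 with voom and 0 to 2 on leaving out a library (2 without replicate 3 of Wnt3a), for menthol with Wnt3a against Wnt3a 1 with voom, and for the F-test 7 with voom and 3 with the replicate block. Same-numbered libraries of different groups correlated at -0.055 to 0.153 over 18 pairs, and 7 of 12 libraries correlated best with their own number, so the numbers were not taken to pair libraries.

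Replication members lower at an unadjusted p under 0.05 numbered, on leaving out a library, 0 to 2 for menthol against control (1 with no FPKM minimum, 1 with centred libraries, 1 with the replicate block), 4 to 9 for Wnt3a against control, 2 to 10 for menthol with Wnt3a against Wnt3a, 4 to 14 against menthol, 7 to 17 against control and 10 to 18 for the averaged Wnt3a effect. The replication median of menthol with Wnt3a against control stayed between -0.1077 and -0.0694 under every alternative run. On leaving out a library, the replication median ranged from -0.0656 to -0.0017 for menthol against control and from -0.0797 to -0.0071 for menthol with Wnt3a against Wnt3a. The G1/S median ranged from 0.0017 to 0.0202 for menthol and from -0.0278 to 0.0158 for Wnt3a against control, from -0.0049 to 0.0221 for menthol with Wnt3a against Wnt3a, and from -0.0064 to 0.0039 against control (-0.0204 with centred libraries). For menthol with Wnt3a against Wnt3a, the mitosis median ranged from -0.0274 to -0.0105 and the checkpoint median from -0.0145 to 0.0388. The mitosis median changed sign for Wnt3a against control (-0.0093 to 0.0093), for menthol with Wnt3a against control (-0.0151 to 0.0124) and against menthol (-0.0231 to 0.0017) and for the averaged Wnt3a effect (-0.0173 to 0.0011). The cause of these differences was not tested. Which members passed depended on the model, with 3 libraries per group and differences near the spread between them. *Pole2* and *Cdkn1c* had as few as 214 and 59 reads in a library, and the effect of depth was not tested.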
